A study of Rattus norvegicus with 12 samples.

Results

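The immediate early response genes described here are Fos, Fosb, Jun, Junb, Egr1, Atf3, Ier2, Dusp1, Myc and Klf6, measured by RNA-Seq in 12 rat livers. They were taken by gene name from the table of RPKM values, and 9 of the 10 names were found, each on 1 row. No row carried the name Fosb, and it was not analysed here. The 9 rows were among 34391 listed transcripts, of which 21718 were above 0 in at least 1 liver and could be tested.

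All animals were adult females of the inbred alcohol-preferring line iP10a, with food and tap water always available. For 23 weeks, 6 of them (EtOH animals) could also drink from bottles of 10, 20 and 30% ethanol, and 6 (control animals) had no ethanol. Livers were collected at 38 weeks of age, or at 39 weeks for EtOH animal 6. Between 2610238 and 6030028 reads per liver could be assigned to listed transcripts, with a median of 3305919 in control and 4302209 in EtOH livers. The model has limits that bear on genes of this kind. The rats came from a single inbred line and drank by choice, blood alcohol was undetectable at sacrifice, and animals had been habituated to handling and to the guillotine. Tissue was whole frozen liver, so a lower or higher value cannot tell apart a different number of cells of a type from a different amount of RNA per cell.

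Immediate early genes are those that cells transcribe first after a stimulus, without needing new protein. Growth factor and stress signals reach them through MAP kinases, serum response factor with its ETS partners, and CREB, and their mRNAs are usually short-lived. In liver they are known for their brief induction after partial hepatectomy, injury, handling and feeding, so their level at one time of collection depends on recent events in the animal. Several encode transcription factors. Fos, Jun and their relatives pair to form AP-1, Egr1 and Klf6 are zinc finger factors, Atf3 belongs to the CREB/ATF family, and Myc drives genes of growth and ribosome formation. Dusp1 is a phosphatase that switches MAP kinases off, and Ier2 is a small nuclear protein.

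RefSeq promoter sequence (rat build GRCr8, the 250 bases before the annotated start) was found for 6 of the 10 genes, namely Fosb, Dusp1, Klf6, Egr1, Junb and Ier2. The deposited coordinates come with no named build, so these positions were not mixed with those of the table. Printed first are Junb and Klf6, the only pair whose Pearson's r between livers passed adjustment (Spearman's rho did not). Then come Dusp1, the member with the highest level, and Ier2, the other member whose promoter held a full CRE. Capitals mark the CREB/ATF motif (the full CRE TGACGTCA or its shorter form TGACG, on either strand) and the CArG box, the motif of serum response factor.
Junb, chr19:40080876-40081125, plus strand: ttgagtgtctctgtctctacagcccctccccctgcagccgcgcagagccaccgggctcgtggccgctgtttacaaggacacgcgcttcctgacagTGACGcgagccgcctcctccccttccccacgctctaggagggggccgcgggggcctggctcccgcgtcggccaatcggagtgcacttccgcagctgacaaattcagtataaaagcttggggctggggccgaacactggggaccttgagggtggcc
Klf6, chr17:69458479-69458728, minus strand: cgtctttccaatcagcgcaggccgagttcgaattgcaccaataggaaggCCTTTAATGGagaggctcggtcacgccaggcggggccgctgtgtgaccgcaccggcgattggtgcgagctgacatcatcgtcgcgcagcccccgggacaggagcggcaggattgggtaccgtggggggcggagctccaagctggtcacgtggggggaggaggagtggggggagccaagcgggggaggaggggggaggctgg
Dusp1, chr10:17184603-17184852, plus strand: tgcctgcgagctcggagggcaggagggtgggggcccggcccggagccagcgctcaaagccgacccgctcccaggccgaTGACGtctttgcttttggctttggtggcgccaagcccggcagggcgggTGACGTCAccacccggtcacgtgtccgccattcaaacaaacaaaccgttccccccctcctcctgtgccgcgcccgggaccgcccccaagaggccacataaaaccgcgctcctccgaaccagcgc
Ier2, chr19:40399123-40399372, plus strand: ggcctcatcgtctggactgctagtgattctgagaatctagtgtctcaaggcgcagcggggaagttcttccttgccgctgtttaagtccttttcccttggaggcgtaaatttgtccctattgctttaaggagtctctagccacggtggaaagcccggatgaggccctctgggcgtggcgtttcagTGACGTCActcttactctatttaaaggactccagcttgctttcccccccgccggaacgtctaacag

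The motifs were searched on both strands over the same 250 bases of 33469 promoters. TGACGTCA lay in 1.59% of all promoters and in those of Dusp1 (124 to 117 bases before the start) and Ier2 (66 to 59 bases before it). TGACG, which every TGACGTCA contains, lay in 18.2% of promoters and in those of Dusp1, Egr1, Junb and Ier2. In Junb it was 155 to 151 bases before the start. A CArG box was found in 1.5% of promoters, among them Klf6 (201 to 192 bases before the start) and Egr1, which held a pair of them. The AP-1 motif TGANTCA lay in 6.34% of promoters and in none of the 6. TATAAA lay in 12.9% of promoters and in Fosb and Junb, the latter 49 to 44 bases before the start, and the MYC motif CACGTG lay in 5.59% of promoters and in Dusp1 and Klf6. The printed sequences thus differ, with a CArG box but no TGACG in Klf6 and the reverse in Junb. A match is a description of letters and does not show that a factor was bound.

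The first question was whether any of the 9 genes differed between EtOH and control livers. Egr1 and Junb had the largest differences, both towards higher levels in EtOH livers, and Myc, Dusp1 and Jun had lower means there. After adjustment over all 21718 transcripts none of the 9 passed the threshold of 0.05 (limma on quantile-normalized log2(RPKM + 0.5), Benjamini-Hochberg), while 2.42% of all transcripts did. At an unadjusted p under 0.05 there were 2 members, Egr1 and Junb, against 15.5% of all transcripts, or 8.07% in the higher direction. limma voom on recovered reads and an unmoderated test on square-root values also called 0 members. Both Egr1 and Junb were called when the test was limited to transcripts averaging 1 RPKM or more, of which 7.76% were called and 3.79% were called higher (adjusted p = 0.0392 for Egr1 and 0.0451 for Junb, limma). They were called as well in the fit with all transcripts of a gene summed (adjusted p = 0.0458 and 0.0498, limma), where 6.4% of gene names were called. Each has 1 row, so summing left their own RPKM values as they were. What changed was the other rows and the number tested, 15270 instead of 21718. Egr1 alone was called without control animal 6 (adjusted p = 0.0496) or without EtOH animal 6 (adjusted p = 0.0331, limma). In these fits 656 of 21576 and 351 of 21535 transcripts were called.

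Of the 9 members 5 had a log2 difference above 0, and 50% of all tested transcripts did. The median difference of the members was 0.13 on the log2 scale, and that of all tested transcripts was 0.00019. No member separated the groups, that is, for each gene at least 1 EtOH liver lay within the range of the control livers, whereas 3.1% of all transcripts separated them. Log2 differences below are on the log2(RPKM + 0.5) scale after quantile normalization, which understates the change of low genes, while means and ranges are RPKM as deposited. On the deposited scale the median transcript averaging 1 RPKM or more was 0.08 lower in EtOH livers (log2), and quantile normalization brought this shift to 0.01.

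Egr1, a zinc finger factor at the end of the MAP kinase and serum response factor route, lies on chromosome 18 (27343567 to 27347352 in the authors' coordinates). Its RPKM ranged from 1.58 to 3.39 with a median of 2.19 in control livers, and from 2.34 to 6.67 with a median of 4.56 in EtOH livers. In 5 of 6 EtOH livers Egr1 was above every control liver, and EtOH animal 6, the lowest of its group, lay within the control range. The mean was 2.31 ± 0.629 (SD, n = 6) in control and 4.48 ± 1.43 in EtOH livers, a ratio of 1.94. The log2 difference was 0.85 (SE 0.23, adjusted p = 0.0788, limma). By the exact permutation test of mean RPKM, two-sided, p was 0.00866, but 0.126 after adjustment over all transcripts. The smallest p this test can give is 0.00216.

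Junb, a partner in AP-1 dimers, lies on chromosome 19 (24831536 to 24833318). It ranged from 2.93 to 5.74 RPKM (median 4.34) in control and from 4.50 to 8.80 (median 5.84) in EtOH livers. EtOH animal 6, the lowest EtOH liver for Egr1, was the highest of all for Junb. Only 3 EtOH livers lay above every control liver. Means were 4.24 ± 1.11 and 6.10 ± 1.45 RPKM (SD, n = 6), a ratio of 1.44, and the log2 difference was 0.58 (SE 0.16, adjusted p = 0.0889, limma). The exact permutation p of the means was 0.0260, and 0.219 adjusted over all transcripts.

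Jun, the other AP-1 member with more than a few reads, is on chromosome 5 (115359397 to 115360401). It ranged from 4.04 to 7.76 RPKM (median 5.21) in control livers and from 3.17 to 5.93 (median 3.90) in EtOH livers. In 3 EtOH livers Jun was below every control liver, and the other EtOH livers lay among the controls. The means, 5.44 ± 1.42 and 4.13 ± 1.06 RPKM (SD, n = 6), gave a log2 difference of -0.29 (SE 0.17, adjusted p = 0.470, limma). Because Jun and Junb differed in opposite directions, their RPKM ratio within each liver was also computed, after these values were seen and with no test. Junb over Jun ranged from 0.489 to 0.986 (median 0.808) in control livers and from 1.06 to 1.93 (median 1.50) in EtOH livers. The ranges did not overlap, but this pair was picked for its opposite differences, and how often ratios of other pairs separate the groups was not computed.

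Fos, the classical first responder and partner of Jun, was close to undetected. It was listed above 0 in 2 control and 3 EtOH livers, and 13 reads were recovered over all 12 livers, with 5 in control and 8 in EtOH livers. The highest value, 0.865 RPKM in control animal 1, came from 4 reads, and the highest EtOH value, 0.470 RPKM in EtOH animal 3, came from 5 reads. A limit of 3 reads for Fos lay between 0.282 and 0.649 RPKM, depending on the depth of the liver, so most values were below what this depth can distinguish from 0. This limit covers counting error only. The log2 difference of -0.02 (SE 0.26, adjusted p = 0.978, limma) turned above 0 when control animal 1 or 4 or EtOH animal 1, 2 or 6 was left out. A difference in Fos was not detectable at this depth.

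Atf3, a stress-induced member of the CREB/ATF family on chromosome 13, was also low. Its RPKM ranged from 0 to 1.03 (median 0.593) in control and from 0.270 to 1.01 (median 0.556) in EtOH livers, and the ranges overlapped almost fully. Only 24 and 36 reads stood behind the groups. The log2 difference was 0.13 (SE 0.29, adjusted p = 0.857, limma) and fell to -0.06 without control animal 4, the liver at 0. It ranged up to 0.40 with a pseudocount of 0.1 and 0.41 with voom. Neither Fos nor Atf3 could be compared closely with these read numbers, and Fos ranked above only 27.3% of tested transcripts by mean RPKM.

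Klf6, a Kruppel-like zinc finger factor on chromosome 17, ranged from 1.47 to 3.97 RPKM (median 2.60) in control livers. In EtOH livers it ranged from 2.11 to 4.59 (median 3.63), and only EtOH animal 6 was above all controls. The ratio of means was 1.31, and the log2 difference was 0.38 (SE 0.20, adjusted p = 0.408, limma). Ier2, on chromosome 19 like Junb, differed little between the groups relative to its spread. It lay between 6.75 and 11.7 RPKM in control livers (median 9.62) and between 7.95 and 12.6 in EtOH livers (median 9.81). Its log2 difference was 0.21 (SE 0.16, adjusted p = 0.604, limma), with 2 EtOH livers above every control. It was 0.09 without normalization between livers, 0.08 with voom, 0.12 without control animal 2 and 0.13 without EtOH animal 2.

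Dusp1, the MAP kinase phosphatase and also a gene that glucocorticoids induce, had the highest level of the 9 and ranked above 92.6% of tested transcripts. It lies on chromosome 10 (16942902 to 16945694). Control livers ranged from 24.8 to 44.8 RPKM (median 35.5) and EtOH livers from 19.3 to 32.9 RPKM (median 23.9). The 3 lowest EtOH livers, animals 3, 4 and 5, were below every control liver. Means were 34.6 ± 7.89 and 24.9 ± 5.13 RPKM (SD, n = 6), so that the control mean was 1.39 times the EtOH mean. The exact permutation p of the mean RPKM was 0.0368 (0.261 adjusted over all transcripts), but on the quantile-normalized log2 scale it was 0.128. The limma log2 difference was -0.29 (SE 0.17, adjusted p = 0.461), and -0.46 without normalization between livers or -0.45 with voom, neither called. The permutation result for Dusp1 thus differed between deposited RPKM and quantile-normalized log2 values. These differ in both scale and normalization, which were not tested apart.

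Myc, the growth regulator, lies on chromosome 7 (98953142 to 98957835). It ranged from 4.07 to 6.45 RPKM (median 5.06) in control and from 2.35 to 5.18 (median 3.67) in EtOH livers. In 4 EtOH livers Myc was below every control liver, while EtOH animals 2 and 3 were within the control range. The means of 5.15 ± 0.800 and 3.64 ± 1.05 RPKM (SD, n = 6) gave a log2 difference of -0.40 (SE 0.19, adjusted p = 0.340, limma). The exact permutation p was 0.0217 for mean RPKM (0.198 adjusted) and 0.0736 for the quantile-normalized log2 values. By mean RPKM, 4 of the 9 members (Egr1, Junb, Dusp1 and Myc) had an exact permutation p of at most 0.05, against 16.1% of all transcripts. On the quantile-normalized log2 scale only Junb (p = 0.00649) and Egr1 (p = 0.0108) did, by the same exact permutation test. The share of all transcripts at that level was not counted on this scale. By limma on the same values, 15.5% of all transcripts had an unadjusted p under 0.05. No member passed adjustment on either scale. No transcript of the whole table did so by this test, the smallest adjusted p being 0.0698 for mean RPKM and 0.0837 for the log2 values.

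**Figure D1:**
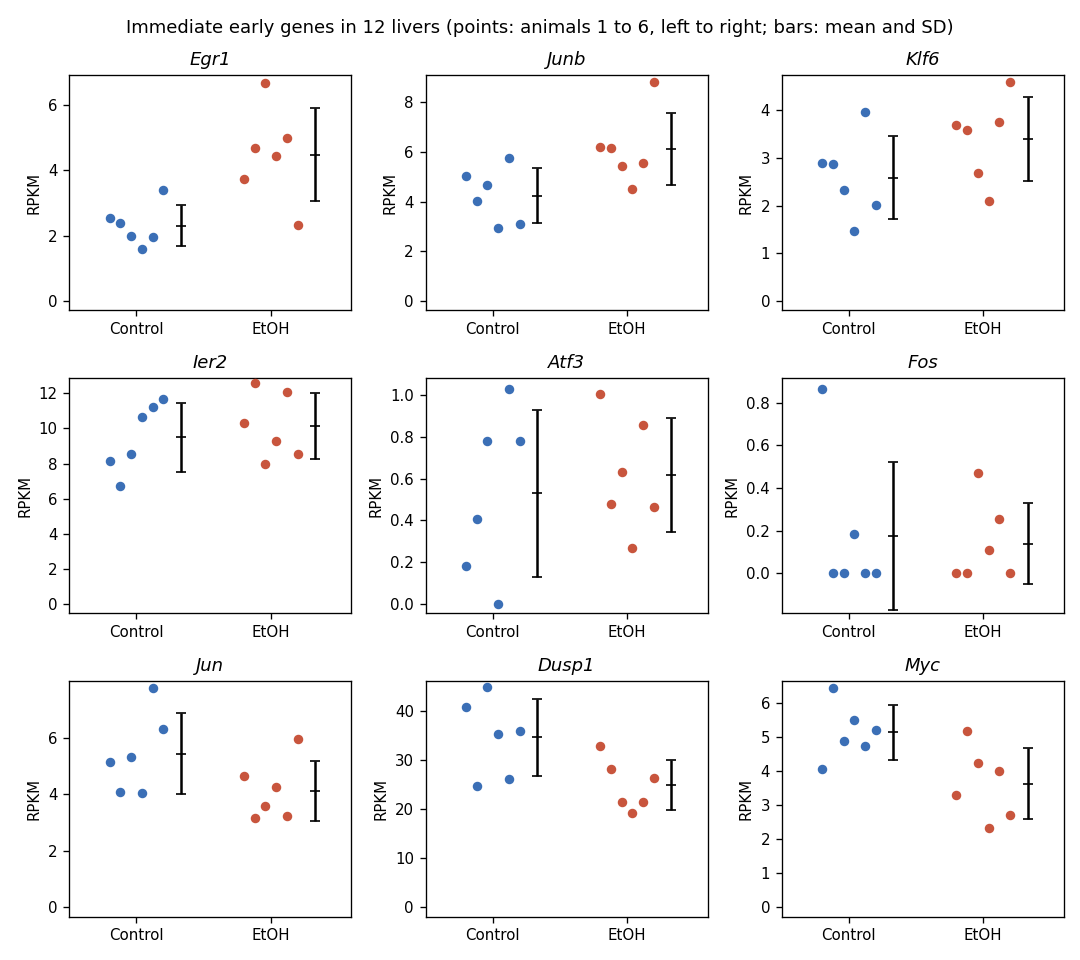
RPKM of the 9 measured genes in each liver (vertical axes in RPKM, each gene on its own scale; blue control, red EtOH; animals 1 to 6 from left to right; bars are the mean and SD of 6 livers). Egr1 was above every control liver in 5 of 6 EtOH livers, Dusp1 and Jun were below every control liver in 3 and Myc in 4, and Fos was at 0 in most livers.

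Leaving out 1 liver at a time kept the sign of the difference for Egr1 (0.72 to 1.01 on the log2 scale), Junb (0.49 to 0.66), Klf6 (0.26 to 0.50), Ier2 (0.12 to 0.29), Jun (-0.38 to -0.20), Dusp1 (-0.38 to -0.22) and Myc (-0.52 to -0.29). Only Fos (-0.16 to 0.19) and Atf3 (-0.06 to 0.26), the genes with few reads, changed sign. Across all the settings tried, the adjusted p of Egr1 ranged from 0.0331 to 0.229 and that of Junb from 0.0451 to 0.175.

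**Figure D2:**
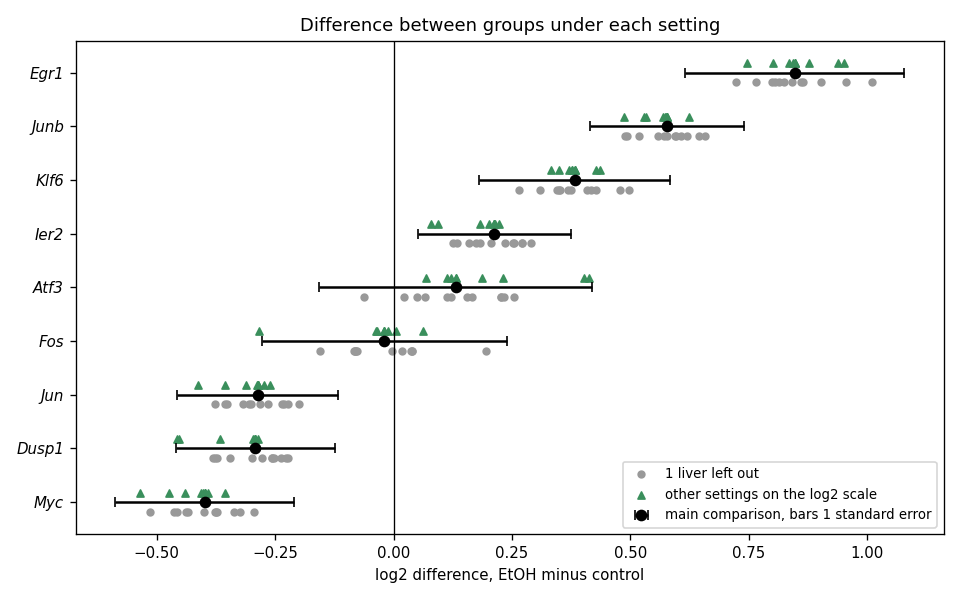
Log2 difference between EtOH and control livers for each gene (horizontal axis, EtOH minus control), with the main value and its standard error in black, other settings as green triangles and fits with 1 liver left out as grey circles. Points for Egr1 and Junb stayed above 0 and those for Myc, Dusp1 and Jun stayed below 0, while points for Fos fell on both sides.

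The second question was how much the livers of one group differed among themselves. Among the 7 members averaging 1 RPKM or more, the coefficient of variation in control livers ran from 15.6% for Myc to 33.4% for Klf6. In EtOH livers it ran from 18.6% for Ier2 to 31.9% for Egr1. The median over 11086 transcripts of that level was 21.1% in control and 17.4% in EtOH livers. Klf6 was more variable than 72.5% and 69.2% of these transcripts in control and EtOH livers, and Egr1 more than 63.6% and 76.9%. Myc stood out by its change of rank, from above 32.5% of transcripts in control to above 73.6% in EtOH livers. The mean absolute deviation of Myc from its group's median was 0.18 in control and 0.35 in EtOH livers on the log2 scale. By a two-sided exact permutation test the difference had p = 0.0823, and no transcript had an adjusted p below 0.0953. No member had p of at most 0.05 for a difference in spread, against 6.39% of all transcripts. Myc alone reached that level when control animal 1 (p = 0.0476) or control animal 2 (p = 0.0498, both by the exact permutation test) was left out.

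Livers that were high in one member were not in general high in the others. With group means removed, correlations were computed for all 36 pairs of the 9 genes over 12 livers, on quantile-normalized log2 values. The median Pearson's r was 0.0347, and r was above 0 in 20 of the 36 pairs. A single pair, Junb and Klf6, passed adjustment, with r = 0.879 (permutation p = 0.00044, adjusted over the 36 pairs 0.0158). Spearman's rho for this pair was 0.741 (permutation p = 0.0126, adjusted 0.454), which did not pass. Leaving out the 2 livers farthest from the median of Junb gave r = 0.825. Within groups r was 0.881 in control and 0.877 in EtOH livers. On unnormalized log2 values it was 0.887. With 1 liver left out r stayed between 0.837 and 0.918, but the adjusted permutation p rose to 0.149 without control animal 4, 0.0612 without control animal 5 and 0.0954 without EtOH animal 4. These animals included the lowest liver for both genes in each group. Between 18 and 71 reads per liver for Junb and between 9 and 37 for Klf6 stood behind these values.

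The next strongest pair was Jun and Myc, at r = -0.590 (permutation p = 0.0433, adjusted 0.780). Atf3, which had few reads, and Klf6 followed with r = 0.537, then Egr1 and Myc with r = 0.510, neither pair passing adjustment. Egr1 and Junb, the members with the largest differences between groups, had r = -0.432. For Dusp1, r lay between -0.0918 and 0.256 in its pairs with the other better measured members, and none passed adjustment.

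**Figure D3:**
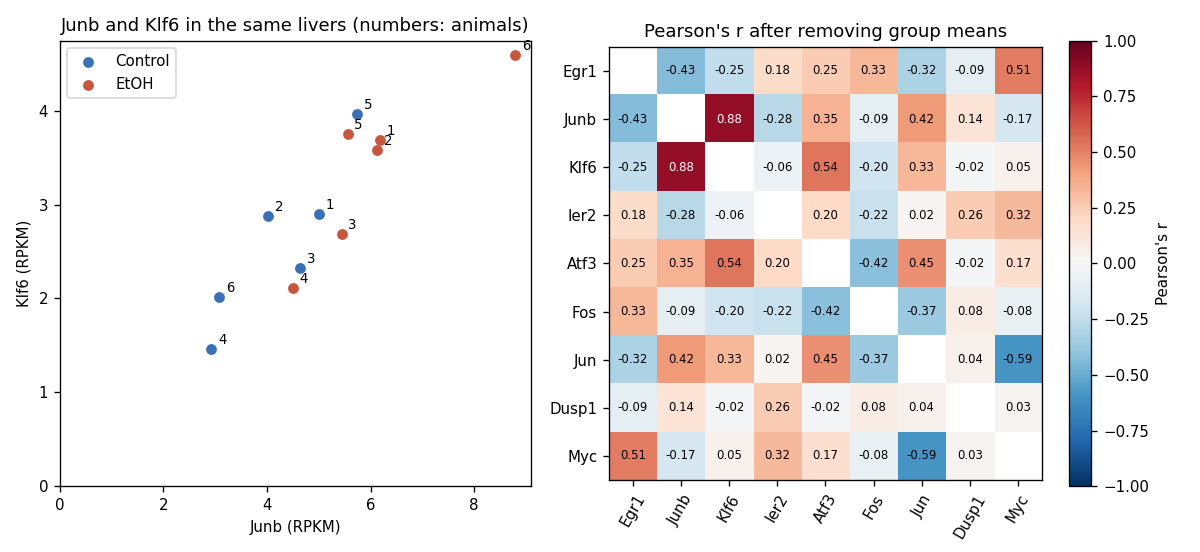
Left, RPKM of Junb (horizontal axis) and Klf6 (vertical axis) in each liver, numbered by animal, blue for control and red for EtOH. Right, Pearson's r of each pair of genes over 12 livers after group means were removed (colour scale from -1 to 1), where Junb and Klf6 at 0.88 stand apart from the other pairs.

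Transcripts whose pattern across the 12 livers was most like that of each member were ranked by the same r among 11085 others averaging 1 RPKM or more. These are descriptions, since the values share their libraries and so many transcripts were ranked. For Junb the nearest were F1M2H7_RAT (r = 0.889), Klf6 (0.879) and Rps6kb2 (0.864), so Klf6 was 2nd of all transcripts, and Junb was 4th for Klf6. The nearest to Klf6 were B2RZ68_RAT (0.908), Nipsnap1 (0.908) and Mettl6 (0.880). For Dusp1 they were Dnase1l3 (0.920), Ctgf (0.904), itself an immediate early gene that encodes a matricellular protein, and Hmgb3 (0.885). Egr1 was nearest to D3ZHP0_RAT (0.871), RGD1560797 (0.833) and Pric285 (0.825), and Ier2 to Znf18 (0.864), D4ABH6_RAT (0.854) and Arhgef7 (0.834). Jun was nearest to Pftk1 (0.871), Rpl34 (0.865) and F1LMD2_RAT (0.823), and Myc to Vps41 (0.812), Nfam1 (0.809) and Mrpl21 (0.806). Apart from Junb and Klf6, no member was among the 3 nearest transcripts of another.

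Genes around the members in the same pathways were then examined, from lists that hold no member. Among 19 other AP-1 and CREB/ATF factors 1 was called, in the lower direction, where 1.29% of all transcripts were called. It was Atf4, the factor of the amino acid and unfolded protein responses and a relative of Atf3. Atf4 fell from 107.0 ± 15.7 to 64.3 ± 3.10 RPKM (SD, n = 6), by 0.57 on the log2 scale (SE 0.08, adjusted p = 0.00507, limma), and all 6 EtOH livers were below every control liver. The number called on this list changed under 3 of the 24 alternatives, among them to 2 without control animal 1. Atf4 was called in every setting tried. Of 18 other immediate early transcription factors 0 were called by limma, and 3 had an unadjusted p under 0.05, a share close to the 15.5% of all transcripts. The smallest p among them was that of Klf10, with 8.95 ± 3.08 RPKM in control and 12.3 ± 3.45 in EtOH livers (log2 difference 0.59, SE 0.23, adjusted p = 0.240, limma).

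Of 28 other immediate early genes that encode effectors rather than transcription factors 0 were called by limma, with 6 at an unadjusted p under 0.05, where 15.5% of all transcripts were. Gadd45b, a growth arrest and stress gene, came nearest. It had 1.62 ± 0.335 RPKM in control and 3.94 ± 1.69 in EtOH livers, above every control liver in 5 of 6, with a log2 difference of 1.01 (SE 0.25, adjusted p = 0.0583, limma). Gadd45b was called without EtOH animal 1 (adjusted p = 0.0150). It was called under median scaling (0.0418), with a filter at a mean RPKM of 0.1 (0.0386) or 1 (0.0266), and with transcripts of a gene summed (0.0311, limma). Gadd45b too has 1 row, so summing left its own RPKM values as they were.

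Upstream of the members, 1 of 21 MAP kinase and serum response factor pathway genes was called, against 2.42% of all transcripts. Egfr, the epidermal growth factor receptor that feeds this route, rose from 17.3 ± 3.22 to 28.5 ± 2.31 RPKM (SD, n = 6), by a log2 difference of 0.87 (SE 0.13, adjusted p = 0.00570, limma), and was above every control liver in all 6 EtOH livers. The number called on this list changed under 4 of the 24 alternatives, among them to 2 without control animal 6. Of the other MAP kinase phosphatases, relatives of Dusp1, 0 of 8 were called by limma and 1, Dusp16, had an unadjusted p under 0.05. Dusp16 had 3.55 ± 1.08 RPKM in control and 4.40 ± 0.642 in EtOH livers (log2 difference 0.37, adjusted p = 0.252, limma). The median log2 difference of these 8 was 0.23, opposite in sign to that of Dusp1.

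Beside Klf6, 1 of 13 other Kruppel-like factors was called in the higher direction, against 1.13% of all transcripts. Klf9, a factor that glucocorticoids and thyroid hormone induce, rose from 9.57 ± 2.74 to 21.0 ± 2.62 RPKM (SD, n = 6), by a log2 difference of 1.27 (SE 0.17, adjusted p = 0.00344, limma). It was above every control liver in all 6 EtOH livers and was called under all 24 alternatives. The list had 2 called genes without control animal 1 and under 8 other alternatives. Klf9 was also the 1 called gene of 13 glucocorticoid target genes, whose median log2 difference was 0.18.

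For Myc, partner proteins and targets were listed. Of 8 partners 0 were called by limma and 0 had an unadjusted p under 0.05, the smallest being that of Mlx (25.1 ± 6.84 RPKM in control and 18.4 ± 1.37 in EtOH livers, log2 difference -0.24, adjusted p = 0.418, limma). Mlx was called when its transcripts were summed (adjusted p = 0.00435, limma), with a log2 difference of -0.33, and its difference was -0.40 without normalization and with voom. Of 22 MYC target genes, most of them for ribosome formation, 4 were called, all lower, against 1.29% of all transcripts. At an unadjusted p under 0.05 (limma) there were 16 of the 22, Npm1 among them in the higher direction, against 15.5% of all transcripts. The median log2 difference of the 22 was -0.36, and 4 of the 22 had a difference above 0. The nucleolar protein gene Nop56 fell from 10.9 ± 3.24 to 5.47 ± 0.949 RPKM (SD, n = 6; adjusted p = 0.0299), and the translation initiation helicase gene Eif4a1 from 112.4 ± 10.8 to 78.2 ± 6.91 RPKM (adjusted p = 0.0317, limma). Mrto4 and Bop1, both for assembly of the large ribosomal subunit, fell from 7.99 ± 1.39 to 4.69 ± 0.836 (adjusted p = 0.0393) and from 9.15 ± 2.14 to 5.40 ± 0.919 RPKM (adjusted p = 0.0482, limma). The count of called targets changed with 1 liver left out, as did that of all transcripts (212 to 656, against 526 in the main fit). Called targets numbered 0 without EtOH animal 2, 3, 4 or 5, 1 without control animal 2, 3, 4 or 5 or EtOH animal 6, and 2 without control animal 1. With 1 liver left out, log2 differences were -0.87 to -0.66 for Nop56 and -0.41 to -0.33 for Eif4a1. Those of Mrto4 were -0.69 to -0.52 and those of Bop1 -0.65 to -0.49. The count of called targets was 9 without normalization between livers, 8 with voom and 0 with the unmoderated square-root test. Of all transcripts, 648, 448 and 182 were called lower in these settings, against 281 in the main fit.

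**Figure D4:**
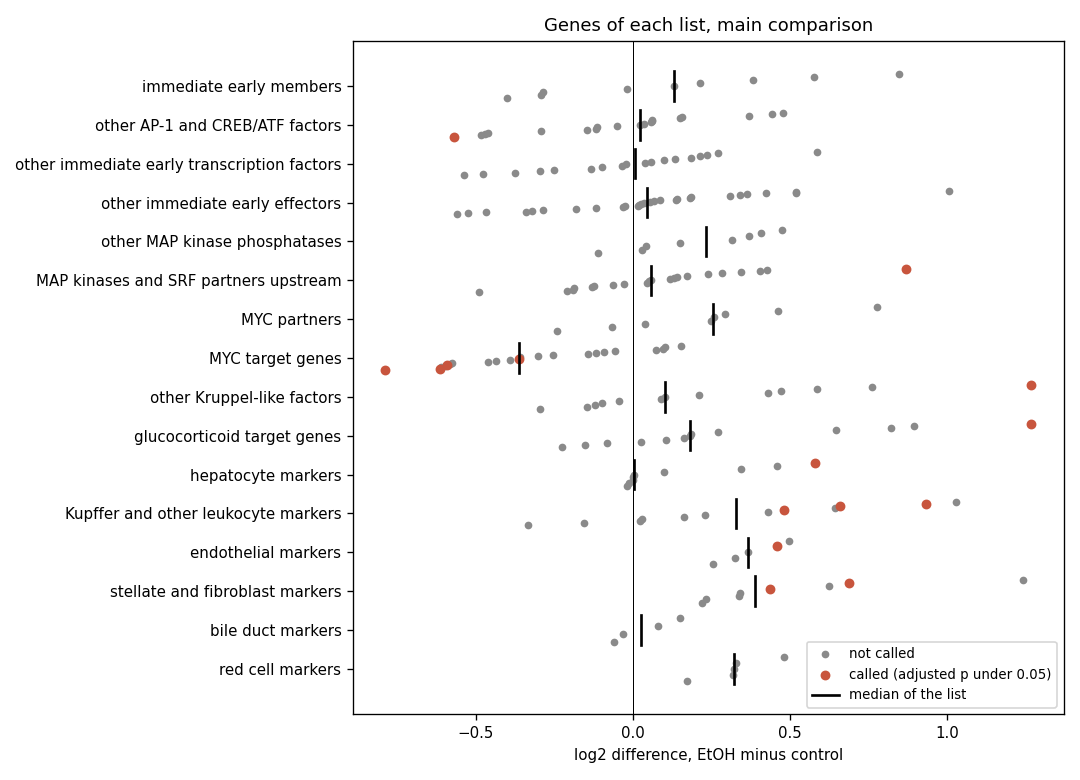
Log2 difference between EtOH and control livers (horizontal axis) for every tested gene of each list, with called genes in red and a bar at the list's median. The 9 immediate early members lie on both sides of 0 with none called, the MYC targets lie mostly below 0, and Klf9 (1.27) and Egfr (0.87) lie at the right ends of their lists.

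Markers of the cells in a piece of liver were measured beside these genes. No marker with a row was at 0 in all livers. The counts below stand against 1.13% of all transcripts called higher. Hepatocyte markers, 9 in number, summed to between 88950 and 117200 RPKM in control and between 98760 and 124700 in EtOH livers, with 1 called (Cps1, higher). Quantile normalization left Alb and Tf with a log2 difference of 0, so neither could be called. Most of the sum was Alb, with a mean of 70350 RPKM in control and 79080 in EtOH livers. Neither the count nor the sum thus measures hepatocyte content. Of 12 Kupffer cell and other leukocyte markers 3 were called higher (Clec4f, Cd74 and Cd163). The 12 summed to 125.6 to 175.1 RPKM in control and 169.7 to 240.2 in EtOH livers. Most of this sum was Clec4f (means of 66.35 and 82.45 RPKM) and Cd74 (43.39 and 73.93), so it largely repeats those calls. Among the markers not called, log2 differences ran from -0.33 (S100a8) to 1.03 (Csf1r). Of 5 endothelial markers 1 was called higher (Cdh5), with sums of 28.0 to 36.2 and 33.5 to 46.5 RPKM. More of this sum came from Lyve1, which was not called (means of 17.22 and 19.76 RPKM), than from any other marker. Of 8 stellate and fibroblast markers 2 were called higher (Col1a2 and Col3a1), with sums of 27.1 to 38.1 and 34.5 to 55.4 RPKM. Col3a1 was the largest part of this sum (means of 19.46 and 23.88 RPKM). These calls changed with 1 liver left out, as did the number called over all transcripts (212 to 656). The log2 differences of the called markers stayed above 0 in those fits, the lowest being 0.39 (Col3a1). Without control animal 4 or EtOH animal 1, 3, 4 or 5 no Kupffer, endothelial or stellate marker was called, and without control animal 2 or EtOH animal 2, 3 or 5 Cps1 was not. Of 4 bile duct and 5 red cell markers 0 were called by limma, with 0 and 1 at an unadjusted p under 0.05. Their sums overlapped between groups, at 4.37 to 8.27 and 3.90 to 7.87 RPKM for bile duct markers and 303.8 to 662.6 and 420.1 to 713.1 RPKM for red cell markers. The part of the markers in the values of Egr1, Junb and the other members was not tested.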

How the data were processed

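Poly(A) RNA of 6 EtOH and 6 control livers was sequenced in 101-nucleotide paired-end reads, per the labels, and the paper states that the libraries shared a single lane. The authors mapped reads with CLCbio Genomics Workbench 4.9 (version from the submitters' processing notes) and deposited RPKM values, reads per kilobase of transcript and mapped depth. No genome build is named in the sources used here, and whether counting used strand is not stated. The authors' own fold changes, test statistics, p values and FDR were not used. Each label is 1 animal, so p-values measure the spread between animals.

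RPKM values were compared with limma 3.58.1 (R 4.3.3, mean-variance trend) on quantile-normalized log2(RPKM + 0.5), with Benjamini-Hochberg adjustment over all 21718 transcripts above 0 in at least 1 liver. Other steps used pandas 2.3.3, scipy 1.17.1 and numpy 2.4.6 under Python 3.11.15. Single values were compared by exact permutation over all 924 regroupings of 6 against 6 livers, two-sided, and correlations by 100000 permutations within groups. Correlation p-values with 1 liver left out or without normalization came from fewer permutations. The plan named all pairs of 10 genes, and 36 remained because Fosb had no row. Whole reads were recovered from the steps between RPKM values, to within 0.01 of a read for all 21718 transcripts, and entered limma voom. The fitting was tested on simulated data.

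Alternatives were pseudocounts of 0.1 and 1, no normalization, median scaling, square-root values with and without moderation (the second being the test in the paper's methods), a mean RPKM of at least 0.1 or 1, no trend, voom, the animal number as a block, transcripts of a gene summed, and each liver left out. Named are all members and, from each list, up to 4 called genes with the smallest adjusted p, or the gene with the smallest p where none was called, and the 3 most similar transcripts per member. List symbols were matched directly or through older symbols of RefSeq. Promoters came from RefSeq GRCr8. The sequences of Egr1 and Fosb were searched but are not printed. The members, lists and tests were chosen with earlier results of these data known.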

Additional observations from a re-analysis of the deposited data

Results flagged for a closer look

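One value lay far from the other livers of its group. Fos in control animal 1 was 0.865 RPKM, and the next highest control liver, animal 4, was at 0.183 RPKM. The gap was 0.789 of the range of the 6 control livers, above the critical value of Dixon's test for a single far value among 6. It was 1 of 18 groups of 6 livers examined for the 9 genes, and chance exceeds this limit in about 1 in 20 groups of normally distributed values. That rate does not hold for Fos, since with most livers tied at 0 a lone read can exceed the limit. The value came from 4 reads, and the other control livers held 1 read in all. In the same liver Egr1 (2.54 RPKM), Junb (5.01 RPKM) and Dusp1 (40.8 RPKM) were within the range of the other control livers, while Myc (4.07 RPKM) was below all of them.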

How the results depend on the processing

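Of the 9 members, 7 (Egr1, Junb, Klf6, Ier2, Jun, Dusp1 and Myc) kept the direction of their difference under all 24 alternatives. Called members numbered 0, or 2 with a mean RPKM of at least 1 or with transcripts of a gene summed, and 0 to 1 with 1 liver left out. Transcripts called numbered 526 (245 higher, 281 lower), 860 with a mean RPKM of at least 1, 977 of 15270 gene names with transcripts summed, 322 in the unmoderated square-root test and 212 to 656 with 1 liver left out (at most 298 without control animal 2 or 4 or EtOH animal 2, 3, 4 or 5). Scaling moved the split, to 126 higher and 648 lower of 774 without normalization and 194 and 337 of 531 with median scaling. With voom, which also changes input and variance model, it was 139 and 448 of 587. Atf3 turned to -0.0626 with 1 liver left out (up to 0.26). Fos, at -0.02, turned to 0.0616 with a pseudocount of 0.1, 0.0051 with median scaling and 0.0182 on square-root values, moderated or not, and ranged from -0.16 to 0.19 with 1 liver left out. Members with an exact permutation p of at most 0.05 for their level numbered 4 on RPKM, where 16.1% of all transcripts did so. They numbered 2 on quantile-normalized log2 values, where that share was not counted and 15.5% of all transcripts had an unadjusted p under 0.05 by limma. For spread they numbered 0, and 0 to 1 with 1 liver left out. For Junb and Klf6, r was 0.837 to 0.918, and the pairs passing adjustment numbered 0 to 1, with 1 liver left out. The labels number the animals 1 to 6 in both groups. Same-numbered livers did not deviate together (r -0.067 to 0.032, nearest partner in 1 of 6). The labels do not say whether the numbers pair animals, and this check cannot decide it. With the animal number as a replicate block 113 transcripts and 0 members were called (adjusted p = 0.229 for Egr1 and 0.170 for Junb, limma), 0 MYC targets, and Egfr was not called (0.0609). The cause of these changes was not tested. Depth limits Fos and Atf3 most, with 13 and 60 reads in 12 livers.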
